A study of Mus musculus with 16 samples.

Results

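The genes examined were 10 that carry cholesterol to active sex steroids in the mouse ovary, with the electron carriers that serve the initial step: Star, Cyp11a1, Fdx1, Fdxr, Hsd3b1, Cyp17a1, Cyp19a1, Hsd17b1, Hsd17b7 and Srd5a1. They were taken by gene name from the 55426 genes of the deposited tables, each name matched 1 row, and all 10 were among the 18833 genes with enough counts to be tested. The samples were 16 single ovaries, each from a different female of the inbred strain C57BL/6NHsd, in 4 groups of 4, all collected in diestrus. On T mice received 0.9 mg testosterone enanthate, a long-acting ester of testosterone, under the skin each week for 6 weeks and were 16 weeks old, as were their controls (Control for On T). Post T mice received the same 6 weeks of testosterone, then resumed cycling without it, and were 24, 26, 26 and 28 weeks old at collection. Their controls (Control for Post T) had the same ages. Control mice received the sesame oil vehicle. Testosterone was given to intact, mature females, and the whole ovary was taken, so each library mixes all of its cell types.

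Steroid synthesis starts when the protein made from Star lets cholesterol reach the inner mitochondrial membrane. There Cyp11a1 cuts the side chain to give pregnenolone, using electrons that Fdxr takes from NADPH and Fdx1 shuttles to the cytochrome. Hsd3b1 turns pregnenolone into progesterone, and Cyp17a1, mainly in theca cells, turns progestagens into androgens. Granulosa cells make estrogen from those androgens with Cyp19a1 (aromatase) and Hsd17b1. Corpora lutea, which form from the ovulated follicle, make large amounts of progesterone and in rodents are rich in Hsd17b7. Srd5a1 reduces testosterone to dihydrotestosterone, the more potent androgen.

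The promoters of 4 of the genes are shown because the values below separate their genes: Fdx1, Fdxr and Hsd17b7 were lower on testosterone, while no change of Hsd3b1 passed the test. The calls of Fdx1 and Hsd17b7 were lost when some single libraries were left out, as given below. RefSeq (GRCm38.p6) held promoters for 7 of the 10 genes, and the 4 printed are the stretches before the gene body, 5′ to 3′ in the gene's direction, all on the minus strand. Capitals mark every match, on either strand, to AAGGNCA (letters bound by nuclear receptors of the NR5A kind), TGACG (the core of cyclic AMP response elements), CCAAT and GATAA.
Fdx1, chr9:51963603-51963852: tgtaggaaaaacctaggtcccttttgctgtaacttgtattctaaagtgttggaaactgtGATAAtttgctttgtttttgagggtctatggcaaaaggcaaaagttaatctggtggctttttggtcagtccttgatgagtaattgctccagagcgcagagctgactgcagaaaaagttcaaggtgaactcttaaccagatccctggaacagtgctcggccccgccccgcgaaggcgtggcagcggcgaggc
Fdxr, chr11:115277051-115277219: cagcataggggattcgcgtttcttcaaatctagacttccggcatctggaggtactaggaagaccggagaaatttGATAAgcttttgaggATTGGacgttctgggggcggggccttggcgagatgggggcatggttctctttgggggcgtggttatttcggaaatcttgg
Hsd3b1, chr3:98859795-98860044: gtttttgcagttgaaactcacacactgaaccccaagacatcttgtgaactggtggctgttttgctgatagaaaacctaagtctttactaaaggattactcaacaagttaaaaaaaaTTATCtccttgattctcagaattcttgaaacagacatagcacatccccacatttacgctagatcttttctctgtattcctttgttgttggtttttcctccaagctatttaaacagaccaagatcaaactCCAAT
Hsd17b7, chr1:169969242-169969408: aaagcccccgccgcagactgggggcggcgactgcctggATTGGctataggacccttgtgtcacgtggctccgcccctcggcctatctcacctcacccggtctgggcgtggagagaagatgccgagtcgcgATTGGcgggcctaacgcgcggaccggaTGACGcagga
Fdx1 held 1 GATAA. Fdxr and Hsd3b1 each held 1 CCAAT and 1 GATAA. Hsd17b7 held 1 TGACG and 3 CCAAT in the 250 bases before its RefSeq start, of which 1 CCAAT lies outside the printed stretch. None of the 4 windows held the letters AAGGNCA. Cyp11a1, Cyp19a1 and Srd5a1 also had RefSeq promoters, which are not printed. A RefSeq start of Cyp11a1 lies 8387 bases before its gene body, and the window before it held 1 TGACG and 1 CCAAT. Of all 32817 RefSeq promoters, 250 bases each, 17.5% held AAGGNCA, 17.7% TGACG, 33.8% CCAAT and 22.6% GATAA. A match is a description of letters and not a binding site.

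The genes lie on 7 chromosomes of GRCm38 and all are protein-coding. On the plus strand are Star (chr8:25806555-25815982), Cyp11a1 (chr9:58006411-58027023) and Hsd17b1 (chr11:101078411-101080527). The minus strand carries Fdx1 (chr9:51943306-51963556), Fdxr (chr11:115268024-115277050), Hsd3b1 (chr3:98852194-98859794), Cyp17a1 (chr19:46667165-46673172), Cyp19a1 (chr9:54165937-54268110), Hsd17b7 (chr1:169949535-169969241) and Srd5a1 (chr13:69573449-69611442). Srd5a1 shared 12% of its 150-base windows with the predicted gene Gm17108, which stood at 0.24 to 0.89 TPM, and Cyp11a1 overlapped Gm17322 in 3.02% of its exon bases. The other genes, Hsd3b1 with its near relatives included, shared no window of 150 bases with another gene.

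Levels below are transcript shares scaled for gene length and library size (TPM), which can be compared between genes. Values of a group are listed in the order of its libraries 1 to 4, and equal numbers in different groups do not join mice. Fold changes are log2 values with their standard error (SE) from edgeR's quasi-likelihood fit of the expected counts in all 16 libraries, and adjusted p is Benjamini-Hochberg over all 18833 genes, with 0.05 as the threshold. The libraries held 26598055 to 52659637 counts, so none of the genes was near the counting floor. Each library is from a separate mouse. Fewer cells of a type and less RNA per cell cannot be told apart in whole ovaries. Markers of ovarian cells were present in every library: summed markers were 1718 to 6064 TPM for granulosa cells and 102 to 240 TPM for oocytes.

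Testosterone came with lower levels at the mitochondrial entry of the pathway. On T, 5 of the 10 genes fell (Star, Cyp11a1, Fdx1, Fdxr and Hsd17b7) and none rose, against 9.27% of all tested genes called in either direction and 5.03% called lower. After testosterone, 3 fell (Star, Fdxr and Hsd17b7) and none rose, against 12.3% of all tested genes called in either direction and 4.81% lower. The median change of the 10 genes was -0.57 on testosterone and -0.38 after it, where the median over all tested genes was -0.01 in each. No change of Hsd3b1, Cyp17a1, Cyp19a1, Hsd17b1 or Srd5a1 passed the test in either comparison.

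**Figure D1:**
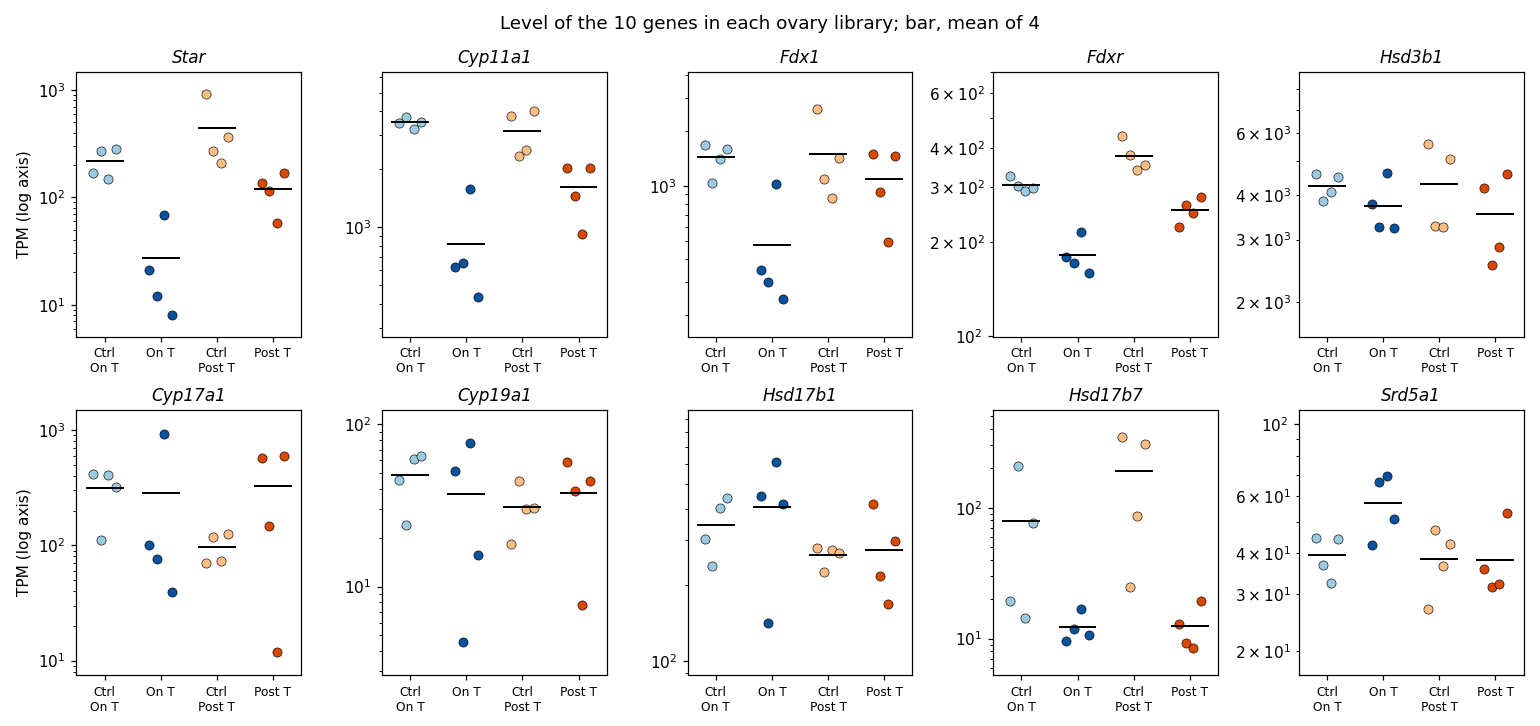
TPM of each of the 10 genes (log axis) in every ovary library, by group; each point is a mouse and each bar the mean of 4. On T libraries of Star lie between 8.04 and 68.3 TPM, below its 4 controls at 148 to 283 TPM, while the On T libraries of Cyp17a1 spread from 39.6 to 930.01 TPM.

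Star, which encodes the steroidogenic acute regulatory protein, showed the widest drop among the mitochondrial genes. Its level was 168, 272, 148 and 283 TPM in Control for On T and 21.0, 12.0, 68.3 and 8.04 TPM in On T. All 4 On T libraries lay below all 4 controls, with library 3 the highest of them. Star fell by 3.06 on the log2 scale (SE 0.56, adjusted p = 0.00229), to 8.34-fold lower. Without On T library 3 the log2 value was -3.82 with an adjusted p of 0.000378. In Control for Post T the level was 919, 269, 211 and 362 TPM, and in Post T it was 137, 115, 57.0 and 167 TPM. The groups again did not overlap, and control library 1 stood far above the other three. Star fell by 2.01 on the log2 scale after testosterone (SE 0.54, adjusted p = 0.0204), to 4.02-fold lower. That call was lost without Control for Post T library 1 (log2 value -1.20, adjusted p = 0.112), and without Post T library 1 (0.0528), 2 (0.0570) or 3 (0.0709). From low to high, the group means were 27.3 ± 27.8 in On T, 119 ± 46.5 in Post T, 218 ± 69.6 in Control for On T and 440 ± 325 TPM in Control for Post T (SD, n = 4). The older controls differed from the younger by 1.34 (SE 0.53), which did not pass the test (adjusted p = 0.395), so the upper neighbours in that order are not separated. The other neighbours, from different cohorts, were not tested against each other.

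Cyp11a1, the side-chain cleavage enzyme, varied little in the younger controls, at 3487, 3739, 3247 and 3539 TPM. On T libraries held 623, 650, 1580 and 432 TPM. They did not overlap with the controls, and library 3 was again the highest. Cyp11a1 fell by 2.09 (SE 0.34, adjusted p = 0.000864), to 4.25-fold lower. After testosterone it stood at 2026, 1451, 926 and 2042 TPM, against 3764, 2343, 2527 and 4009 TPM in Control for Post T. These groups did not overlap either, but the log2 change of -0.96 (SE 0.33, interval -1.66 to -0.27) missed the threshold with an adjusted p of 0.0686. It passed without Control for Post T library 2 (log2 value -1.09, adjusted p = 0.0489), with age as a covariate (0.0426) and in a fit of the 8 libraries compared (0.0365).

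Most markers of luteal cells were lower in the testosterone groups, as Star and Cyp11a1 were. The summed level of the 6 luteal markers was 1067 to 2141 TPM in Control for On T and 67.1 to 147 TPM in On T, with library 3 the highest On T library. It was 1416 to 2217 TPM in Control for Post T and 113 to 360.0 TPM in Post T, with library 3 the lowest Post T library. Sfrp4 was the largest part of each control sum. It stood at 634 to 1421 TPM in Control for On T and 698 to 1389 TPM in Control for Post T. Lhcgr did not pass after testosterone (log2 value -0.02, adjusted p = 0.990). Its groups overlapped, at 71.7 to 329 TPM in Control for Post T and 62.5 to 263 TPM in Post T. Lhcgr was also highest of On T in library 3, at 85.0 TPM, and lowest of Post T in library 3. Of the 6 markers, 4 were called lower on testosterone and 5 after it, none was called higher, and none was at 0 in every library. Their part in the changes of Star, Cyp11a1, Fdx1, Fdxr and Hsd17b7 was not tested. The luteal list and the other marker lists were drawn up with earlier results of these libraries known, so the counts are not independent evidence.

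Fdx1, the ferredoxin that hands electrons to Cyp11a1, was spread widely within groups. It measured 1681, 1039, 1411 and 1589 TPM in Control for On T and 350, 300.4, 1031 and 242 TPM in On T. Library 3 of On T nearly reached the lowest control. In counts relative to library size (CPM), the scale on which overlap was judged, it exceeded that control. Fdx1 fell by 1.58 (SE 0.46, adjusted p = 0.0406). Leaving out any of 7 libraries ended the call, namely Control for On T library 1 (adjusted p = 0.0830), 2 (0.0540), 3 (0.0668) or 4 (0.0942), or On T library 1 (0.120), 2 (0.106) or 4 (0.120), as did a fit of the 8 libraries compared (0.0508). Without On T library 3 the fall was larger, with a log2 value of -2.25 and an adjusted p of 0.00290. Fdx1 was 2609, 1091, 864 and 1421 TPM in Control for Post T and 1487, 925, 496 and 1456 TPM in Post T. Those groups overlapped, and the difference of -0.49 (SE 0.45, interval -1.45 to 0.46) did not pass (adjusted p = 0.593).

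Fdxr, the reductase that loads ferredoxin with electrons, fell least of the genes that were called. Control for On T libraries held 326, 302, 291 and 297 TPM, and On T libraries 179, 172, 216 and 159 TPM. The groups did not overlap. Fdxr fell by 0.76 (SE 0.14, adjusted p = 0.00181), to 1.70-fold lower. In Control for Post T it was 438, 379, 341 and 353 TPM and in Post T 223, 262, 248 and 280 TPM, again with no overlap. The fall after testosterone was 1.46-fold, a log2 value of -0.55 (SE 0.14, adjusted p = 0.0120). Leaving out Post T library 1 ended that call (log2 value -0.46, adjusted p = 0.0611), and without Control for Post T library 1 the value was -0.36 (adjusted p = 0.0471). Fdx2, the other mitochondrial ferredoxin, differed by -0.12 on testosterone (adjusted p = 0.598) and 0.07 after it (adjusted p = 0.786).

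Hsd3b1, which makes progesterone from pregnenolone, was the most abundant of the 10 transcripts in every group mean. It measured 4605, 3860, 4079 and 4513 TPM in Control for On T and 3782, 3257, 4631 and 3241 TPM in On T. The groups overlapped. The difference was -0.18 (SE 0.22, adjusted p = 0.689), with an interval from -0.66 to 0.29. After testosterone it was 4204, 2545, 2862 and 4590 TPM, against 5600, 3284, 3261 and 5085 TPM in Control for Post T. The difference of -0.27 (SE 0.22, adjusted p = 0.554) had an interval from -0.74 to 0.21. Both intervals leave out a fall as large as the 4.25-fold of Cyp11a1 on testosterone.

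**Figure D2:**
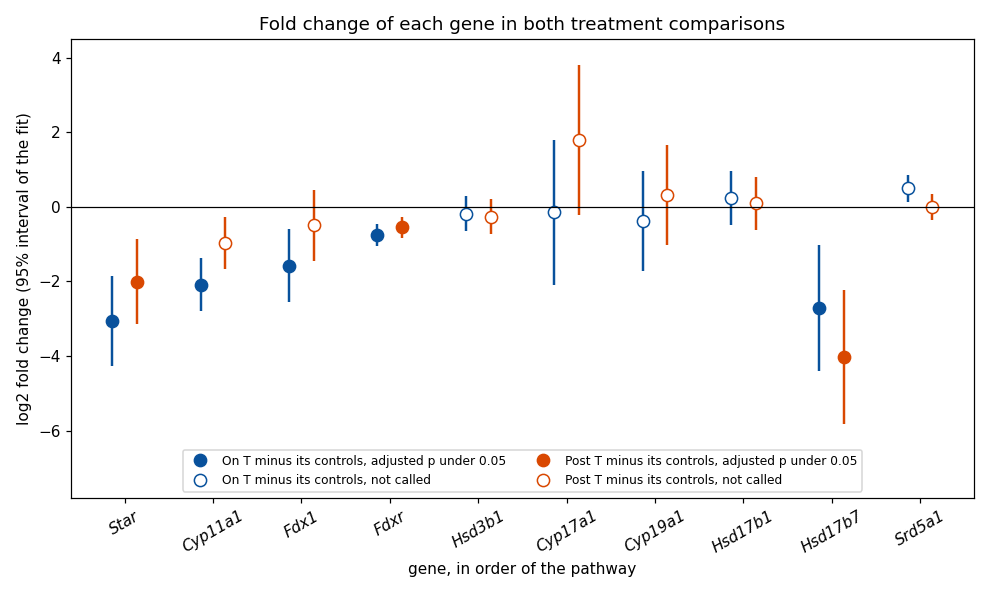
Log2 fold change of each gene against its own controls, in order of the pathway, for On T and Post T; points are edgeR estimates and lines their 95% intervals. Star, Cyp11a1, Fdx1, Fdxr and Hsd17b7 are lower on testosterone, while the intervals of Hsd3b1, Cyp17a1, Cyp19a1 and Hsd17b1 include 0 in both comparisons.

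Cyp17a1, the theca enzyme that makes androgens, varied widely between the mice of each testosterone group. Control for On T libraries held 415, 111, 406 and 319 TPM. On T libraries held 100.1, 76.6, 930.01 and 39.6 TPM, so that 3 were below every control and library 3 above every control. The highest On T library was 23.5 times the lowest, against 3.74 times in its controls. The fitted difference was -0.14 (SE 0.92, adjusted p = 0.952) with an interval from -2.08 to 1.80, and without On T library 3 it was -2.11 (adjusted p = 0.127). Without Control for On T library 1 or 3, or On T library 1, 2 or 4, the sign turned, up to a value of 0.23, while limma on TPM gave -1.09 with a pseudocount of 1 and -1.10 with 0.1. The direction on testosterone is therefore not settled. Control for Post T libraries held 70.6, 117, 72.4 and 126 TPM, and Post T libraries 567, 147, 12.0 and 590.2 TPM. Here 3 Post T libraries stood above every control and library 3 stood below, a range of 49.3 times against 1.78 times. The difference of 1.79 (SE 0.95, interval -0.21 to 3.80) did not pass (adjusted p = 0.284), and limma gave 0.76 with a pseudocount of 1 and 0.74 with 0.1.

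Beside Cyp17a1, the summed level of the 4 other theca markers was 77.0 to 103 TPM in Control for On T and 110 to 192 TPM in On T, with library 3 the highest. It was 37.4 to 78.4 TPM in Control for Post T and 76.4 to 199 TPM in Post T, with library 3 the lowest. Most of the sum in On T library 3 was Insl3, at 144 TPM. Ptch1, Gli1 and Hhip were instead highest in On T library 2, at 61.6, 18.4 and 8.53 TPM. In On T library 3 they were at 34.1, 9.15 and 4.58 TPM. In Post T library 3 Insl3 was the lowest of its group, at 39.1 TPM, and Gli1 the highest, at 9.47 TPM. Insl3 was 9.21 to 30.4 TPM in Control for Post T and 39.1 to 162 TPM in Post T. The other theca markers overlapped between these groups and did not follow that rise. Ptch1 was 18.7 to 35.4 TPM and 24.9 to 29.1 TPM in the same groups. Gli1 was 6.94 to 10.4 TPM and 7.06 to 9.47 TPM, and Hhip 2.49 to 5.94 TPM and 2.54 to 2.99 TPM. Of the 4 markers, 1 was called higher in each comparison, none was called lower and none was at 0. Their part in the spread of Cyp17a1 was not tested.

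Cyp19a1, aromatase, was among the less abundant of the 10 genes. It measured 45.5, 24.1, 60.9 and 63.8 TPM in Control for On T and 52.0, 4.56, 76.6 and 15.6 TPM in On T. The On T values reached both below and above the controls. The difference was -0.37 (SE 0.63, adjusted p = 0.782) with an interval from -1.71 to 0.97. In Control for Post T it was 18.3, 44.5, 30.2 and 30.5 TPM and in Post T 58.7, 39.1, 7.66 and 44.7 TPM. Post T library 3 was the lowest of these 8 for Cyp19a1, as it was for Cyp17a1. The difference was 0.32 (SE 0.63, adjusted p = 0.841), interval -1.02 to 1.66.

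Hsd17b1, the granulosa enzyme that makes estradiol from estrone, was 305, 238, 401 and 441 TPM in Control for On T and 450.2, 141, 612 and 419 TPM in On T. The groups overlapped and differed by 0.24 (SE 0.34, adjusted p = 0.735), interval -0.48 to 0.96. It was 279, 225, 275 and 266 TPM in Control for Post T and 417, 217, 168 and 299 TPM in Post T, a difference of 0.09 (SE 0.34, adjusted p = 0.923), interval -0.63 to 0.81. Beside these genes, the 5 other granulosa markers summed to 2847 to 4453 TPM in Control for On T and 1718 to 6064 TPM in On T, the lowest in library 2 and the highest in library 3. The same 2 libraries were the lowest and highest On T libraries for Cyp19a1 and Hsd17b1. In Control for Post T the granulosa sum was 2518 to 2849 TPM and in Post T 2287 to 4822 TPM, lowest in library 3 and highest in library 1. None of the 5 markers was called in either comparison by edgeR or DESeq2, with 1 at an unadjusted p under 0.05 on testosterone and 0 after it. Their part in the spread of Cyp19a1 and Hsd17b1 was not tested.

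Hsd17b7, known both as an enzyme of estradiol formation in corpora lutea and as a step of cholesterol synthesis, had the widest spread among controls. It measured 19.5, 208, 14.4 and 76.1 TPM in Control for On T, a 14.5-fold range, and 9.64, 11.9, 16.9 and 10.7 TPM in On T, a 1.75-fold range. The groups overlapped, since control library 3 lay below On T library 3. Hsd17b7 fell by 2.71 (SE 0.80, adjusted p = 0.0420), to 6.56-fold lower. The call did not hold without Control for On T library 2, where the log2 value shrank to -1.58 (adjusted p = 0.229). It was also lost without Control for On T library 4 (0.0797) or On T library 1 (0.115), 2 (0.0904), 3 (0.0641) or 4 (0.107), by limma on TPM (0.198 with a pseudocount of 1, 0.191 with 0.1), and in a fit of the 8 libraries compared (0.0579). Control for Post T libraries held 349, 24.9, 87.3 and 306 TPM, and Post T libraries 12.9, 9.30, 8.42 and 19.3 TPM. Those groups did not overlap. The fall after testosterone was 16.3-fold, a log2 value of -4.02 (SE 0.84, adjusted p = 0.00357), and without Control for Post T library 1 it was -3.43 (adjusted p = 0.0120). Both testosterone groups were low and even, with means of 12.3 ± 3.21 and 12.5 ± 4.94 TPM (SD, n = 4).

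Srd5a1, which makes dihydrotestosterone, was the only one of the 10 whose 4 On T libraries all lay above the mean of the controls in log2 CPM, by 0.16 to 0.76. It measured 44.6, 36.8, 32.4 and 44.4 TPM in Control for On T and 42.4, 66.4, 69.2 and 50.9 TPM in On T. Library 1 of On T lay inside the control range and the other 3 above it. The difference of 0.49 (SE 0.17, interval 0.13 to 0.84) had an adjusted p of 0.0832. It passed without On T library 1 (log2 value 0.60, adjusted p = 0.0498) and by DESeq2's Wald test (adjusted p = 0.0472). In Control for Post T it was 27.0, 47.3, 36.6 and 42.8 TPM and in Post T 35.8, 31.5, 32.2 and 53.2 TPM, with an adjusted p of 0.995 and an interval from -0.36 to 0.35.

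**Figure D3:**
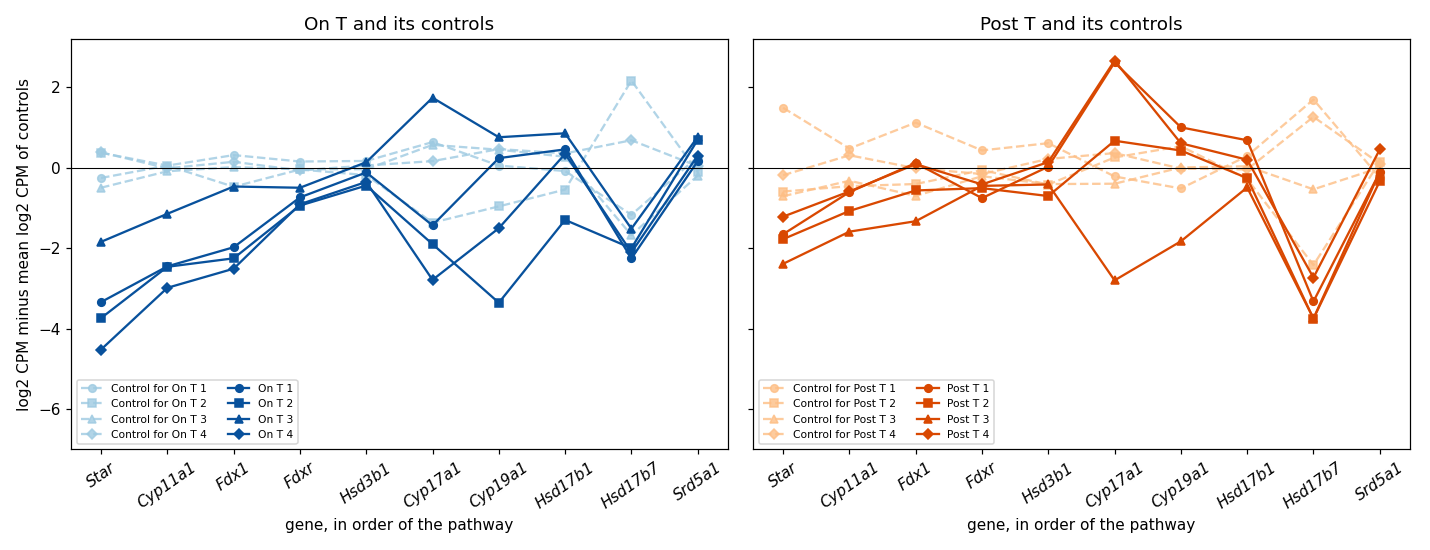
Log2 CPM of each gene minus the mean log2 CPM of its controls, joined across the 10 genes for each library; left, On T and its controls, right, Post T and its controls. On T library 3 runs above the other On T libraries from Star (-1.84, the others -4.52 to -3.34) to Cyp17a1 (1.74), and Post T library 3 runs lowest at Cyp17a1 (-2.80).

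Groups of 4 did not overlap in CPM for 3 genes on testosterone (Star, Cyp11a1, Fdxr; all tested genes, 15.1%) and for 4 after it (the same 3 and Hsd17b7; all tested genes, 16.5%), in each case with the testosterone group lower. Relative to its controls, On T library 3 was at -1.84 for Star, -1.15 for Cyp11a1, -0.47 for Fdx1 and 1.74 for Cyp17a1 on the log2 CPM scale. The other On T libraries were at -4.52 to -3.34, -2.98 to -2.45, -2.51 to -1.98 and -2.79 to -1.43 for the same genes. All 10 genes together took 0.983% to 1.12% of all TPM in Control for On T and 0.462% to 0.923% in On T. They took 0.771% to 1.41% in Control for Post T and 0.482% to 0.954% in Post T.

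Whether the effect differed between the 2 treatment settings was tested directly as the Post T effect minus the On T effect. No gene of the 10 passed by edgeR or DESeq2, 1 had an unadjusted p under 0.05, and 3.25% of all tested genes were called. That gene was Cyp11a1, with a difference of 1.12 (SE 0.46, unadjusted p = 0.0269, adjusted p = 0.258). Without On T library 3 the difference of Cyp11a1 was 1.65 with an adjusted p of 0.0141. Star differed by 1.05 (SE 0.74, adjusted p = 0.573) and Fdx1 by 1.09 (SE 0.64, adjusted p = 0.482), both toward a smaller fall after testosterone. Hsd17b7 differed by -1.31 (SE 1.07, adjusted p = 0.645), toward a larger one. Age differs between these cohorts as well as the time since testosterone, and the 2 cannot be told apart in this difference.

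No difference between older and younger controls passed for any of the 10 genes by edgeR or DESeq2, and 2 had an unadjusted p under 0.05. Over all genes edgeR called 0%, with 1892 genes at an unadjusted p under 0.05, while DESeq2 called 177. Those 2 were Star, at 1.34 higher in the older controls (unadjusted p = 0.0222, adjusted p = 0.395), and Fdxr, at 0.32 higher (SE 0.14, unadjusted p = 0.0292, adjusted p = 0.427). Without Control for Post T library 1 these values were 0.56 for Star (adjusted p = 0.596) and 0.16 for Fdxr (adjusted p = 0.531). For Star, limma on TPM gave 0.82 with either pseudocount. Cyp17a1 differed by -1.72 in the older controls (SE 0.95, adjusted p = 0.576), with an interval from -3.72 to 0.28. Its mean was 96.4 TPM in Control for Post T and 313 TPM in Control for On T. Hsd17b7 differed by 1.39 (SE 0.76, adjusted p = 0.570), with an interval from -0.21 to 3.00. None of the 10 had control groups that did not overlap, against 5.89% of all tested genes.

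Ratios within a library compare pairs of genes of the pathway without reference to the other genes of the ovary. The ratio of Star to Cyp11a1 was 0.0457 to 0.0801 in Control for On T and 0.0186 to 0.0433 in On T, with no overlap, so Star was lower by more than Cyp11a1 in those libraries. After testosterone it was 0.0617 to 0.0818, against 0.0834 to 0.244 in Control for Post T, again with no overlap. Fdxr to Cyp11a1 was 0.0809 to 0.0935 in Control for On T and 0.136 to 0.369 in On T, with no overlap in the upward direction. After testosterone that ratio overlapped, at 0.110 to 0.267 against 0.0882 to 0.162 in Control for Post T (exact permutation p = 0.257). Hsd17b7 to Hsd17b1 was 0.111 to 1.25 in Control for Post T and 0.0310 to 0.0648 in Post T, with no overlap. On testosterone it overlapped, at 0.0216 to 0.0847 against 0.0361 to 0.875 in Control for On T (exact permutation p = 0.114). For each of the 4 comparisons without overlap the exact 2-sided permutation test gave p = 0.0286, the smallest that 4 against 4 libraries allow, and the value adjusted over the 10 ratio comparisons was 0.0714, which does not pass. Fdx1 to Cyp11a1 had geometric means of 0.402 and 0.555 (exact permutation p = 0.0571) in Control for On T and On T, and of 0.445 and 0.650 (exact permutation p = 0.0857) in Control for Post T and Post T. Cyp19a1 to Cyp17a1, the estrogen step over the androgen step, had geometric means of 0.164 and 0.179 in Control for On T and On T (exact permutation p = 0.857). In Control for Post T and Post T they were 0.317 and 0.192 (exact permutation p = 0.400).

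**Figure D4:**
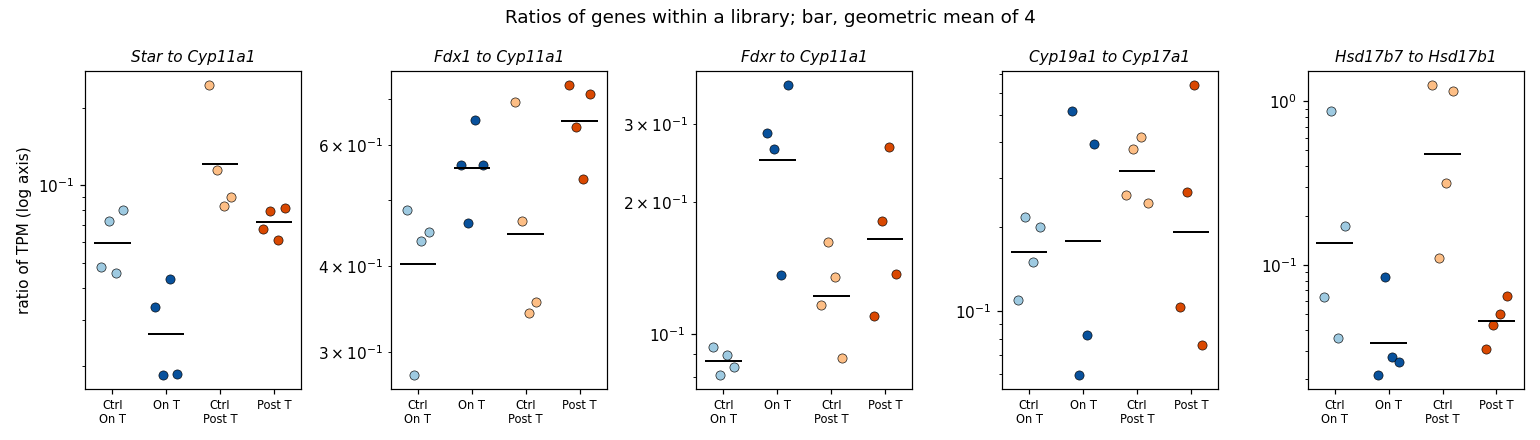
Ratio of the TPM of a pair of genes within each library (log axis), by group; points are mice and bars the geometric mean of 4. Star to Cyp11a1 is lower in both testosterone groups (0.0268 against 0.0599, and 0.0721 against 0.121), and Fdxr to Cyp11a1 is higher on testosterone (0.249 against 0.0869).

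From mouse to mouse within groups, the genes of side-chain cleavage varied together. Correlations were computed over all 16 libraries on log2 CPM with the group means removed, with 45 pairs adjusted together and p from 100000 permutations within groups. Of these pairs, 13 passed, all with positive r, and 11 of them passed by Spearman's rho too. Removing the group means does not remove a cell type or depth that varies from mouse to mouse within groups, which the libraries share for all genes. Cyp11a1 and Fdx1 had r = 0.91 (permutation p = 0.00042, adjusted 0.00945) and rho = 0.874, with r = 0.866 without the 2 libraries farthest from the median. Star and Cyp11a1 had r = 0.871 (permutation p = 0.00016, adjusted 0.0072) and rho = 0.879, with r = 0.791 without 2 libraries. These 3 genes are the transport protein, the enzyme and its electron donor. Fdx1 also followed Cyp17a1, with r = 0.784 (permutation p = 0.0018, adjusted 0.0162), rho = 0.847 and r = 0.889 without 2 libraries. Fdxr passed with none of the other 9, and its r with Star of 0.713 (adjusted permutation p = 0.0955) was 0.284 without 2 libraries.

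Aromatase was linked with the other estrogen enzyme of granulosa cells and with the androgen enzyme of theca cells. Cyp19a1 and Hsd17b1 had r = 0.828 (permutation p = 0.00221, adjusted 0.0165) and rho = 0.721, with r = 0.633 without 2 libraries. Cyp17a1 and Cyp19a1 had r = 0.769 (permutation p = 0.00504, adjusted 0.0213) and rho = 0.750, with r = 0.589 without 2 libraries. Cyp17a1 and Hsd17b1 did not pass (r = 0.573, adjusted permutation p = 0.191). Hsd17b7 went with Star (r = 0.591, adjusted permutation p = 0.0336) and with Cyp11a1 (r = 0.475, adjusted permutation p = 0.0112). Its r with Hsd17b1, the other estradiol-forming enzyme here, was 0.05 (adjusted permutation p = 0.848), and with Cyp17a1 -0.02 (adjusted permutation p = 0.899). No pair with Srd5a1 passed.

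**Figure D5:**
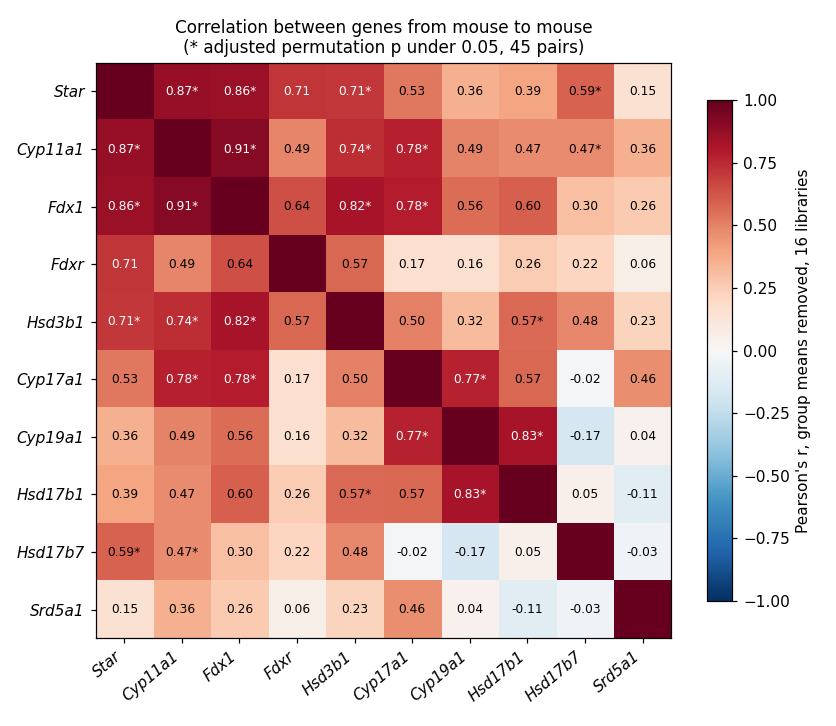
Pearson's r between each pair of the 10 genes over 16 libraries, on log2 CPM with group means removed; asterisks mark adjusted permutation p under 0.05 among 45 pairs. The block of Star, Cyp11a1, Fdx1 and Hsd3b1 has r from 0.71 to 0.91, while Hsd17b7 has r of -0.02 with Cyp17a1 and -0.17 with Cyp19a1.

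Genes were ranked by r with Star, Cyp17a1 or Cyp19a1, with group means removed, over 16 libraries, among tested genes averaging at least 1 CPM. Predicted and unnamed genes, pseudogenes and genes of the mitochondrial genome were left out. Those most like Star were Eif4e (0.95), Nadk (0.927), Coq10b (0.923), Gtf3c6 (0.919) and Memo1 (0.914). For Cyp17a1 they were Aqp5 (0.96), Fads2 (0.949), Tcaf1 (0.943), Plin1 (0.939) and Cpox (0.923). For Cyp19a1 they were Adgra3 (0.935), Ttc21b (0.928), Lrrc41 (0.926), Dact2 (0.922) and Inhba (0.917), the last a subunit of activin and inhibin made by granulosa cells. These are descriptions of these libraries, ranked over the genes that were kept, without a test.

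Among 26 other steroid enzymes found in the tables, 19 could be tested, and 1 rose and 3 fell on testosterone, while 2 rose and 2 fell after it, against 9.27% and 12.3% of all tested genes called in either direction. The medians were -0.17 and -0.05. Akr1c18, which inactivates progesterone, fell in both comparisons, with log2 values of -7.78 (adjusted p = 1.54e-11) and -9.39 (adjusted p = 5.92e-12). Cyp11b1, an adrenal enzyme of corticosteroid synthesis, had 36, 30, 36 and 24 counts in Control for On T and 12, 25, 15 and 11 in Control for Post T. It had 0 counts in all 8 testosterone libraries. Against a floor of 3 counts over each group, that is at least 42.5-fold lower on testosterone and at least 24.2-fold lower after it (adjusted p 8.41e-05 and 0.000117). The 5 adrenal cortex markers, of which Cyp11b1 is 1 and Cyp11b2 was at 0 in all 16 libraries, summed to 1.52 to 4.06 TPM in Control for On T and 0.20 to 0.69 TPM in On T. Their sum was 1.54 to 2.03 TPM in Control for Post T and 0.11 to 0.60 TPM in Post T. Most of each control sum was Akr1b7, at 1.15 to 3.46 TPM in Control for On T, 0.15 to 0.56 TPM in On T, 1.26 to 1.63 TPM in Control for Post T and 0.08 to 0.57 TPM in Post T. Cyp21a1 and Mc2r, which define adrenal cortex, were at most 0.11 and 0.19 TPM in any library and too low to test. A part of adrenal tissue in the result was not tested. Hsd3b7, of bile acid synthesis, fell by 0.47 on testosterone (adjusted p = 0.00233), and its change differed between the settings by 0.61 (adjusted p = 0.00929). Cyp1b1, which hydroxylates estradiol, rose by 0.63 on testosterone (adjusted p = 0.0134), from 354 to 549 CPM. Hsd17b11 rose by 0.57 (adjusted p = 0.00193) and Srd5a3 by 0.27 (adjusted p = 0.0284) after testosterone.

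Of 6 other electron donors tested, none was called on testosterone by edgeR, where 2 had an unadjusted p under 0.05 and DESeq2 called 1 higher. After testosterone 1 rose, against 9.27% and 12.3% of all tested genes called in the respective comparisons. That was Pgrmc1, a heme-binding partner of cytochromes P450, from 310 to 459 CPM (log2 value 0.57, adjusted p = 0.00294). Por, the reductase that gives electrons to Cyp17a1 and Cyp19a1, differed between the settings by 0.77 (SE 0.19, adjusted p = 0.0332). Its separate changes were -0.41 on testosterone (adjusted p = 0.0704) and 0.36 after it (adjusted p = 0.0977), and neither passed.

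Among 14 genes of cholesterol delivery, 1 fell on testosterone and 3 rose after it, where 9.27% and 12.3% of all tested genes were called. Tspo, a protein of the outer mitochondrial membrane, fell by 0.63 (adjusted p = 0.00341) from 54.9 to 35.6 CPM on testosterone. After testosterone Abca1, which exports cholesterol, rose by 0.83 (adjusted p = 0.00194), Npc1, which frees it from lysosomes, by 0.52 (adjusted p = 0.00185), and Stard3, a late endosomal relative of Star, by 0.27 (adjusted p = 0.0302). Macrophage markers moved in the same comparison: their summed level was 433 to 1098 TPM in Control for Post T and 4070 to 5834 TPM in Post T. Of these markers, 4 of 5 were called higher and none was at 0. Most of each sum was Lyz2, at 294 to 841 TPM in Control for Post T and 3218 to 4490 TPM in Post T. Csf1r was 10.55 to 19.4 TPM and 25.1 to 34.1 TPM in these groups. Adgre1 overlapped, at 5.07 to 10.5 TPM and 8.83 to 11.2 TPM. The part of these markers was not tested. Of 14 regulators of steroid synthesis, 2 fell on testosterone, and after it 2 fell and 1 rose, beside the same 9.27% and 12.3% over all tested genes. Prlr, the prolactin receptor, fell by 1.21 on testosterone (adjusted p = 0.00523) and by 0.98 after it (adjusted p = 0.0135). Crem, a factor of cyclic AMP signalling, fell by 0.71 on testosterone (adjusted p = 0.00872). After testosterone Nr4a1, an orphan nuclear receptor, fell by 1.78 (adjusted p = 0.0291) and Gata4, a factor of granulosa and theca cells, rose by 0.60 (adjusted p = 0.0397), each with groups that overlapped. Nr5a1, steroidogenic factor, did not pass in either comparison, with 0.13 (adjusted p = 0.748) and 0.45 (adjusted p = 0.154).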

How the data were processed

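RNA of 16 mouse ovaries was sequenced as paired ends from poly(A) libraries of a directional kit, per the labels' protocols. The build was GRCm38, and RSEM 1.3.3, STAR 2.7.8a, FastQC 0.11.8 and cutadapt 2.3 were used, per the submitters' processing notes. Which annotation release was counted, and whether strand was used, is not given in the sources used here. The authors deposited expected counts, estimated per gene without normalisation and all whole numbers. Their deposited TPM and FPKM values are relative to gene length and sequencing depth. TPM was used for levels and ratios, and FPKM for 1 alternative of the ratios.

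The expected counts of all 16 libraries were fitted by group in R 4.3.3 with edgeR 4.0.16 (TMM scaling, filterByExpr with a minimum count of 10, quasi-likelihood F test, Benjamini-Hochberg adjustment at 0.05), after a test on simulated data. SE is the fold change divided by the square root of F. CPM values are scaled by TMM. Ratios used TPM plus 0.1. Library totals of 26598055 to 52659637 counts put 3 counts, taken as the floor, at 0.0570 to 0.113 CPM; floors cover counting error only. Positions came from GENCODE for GRCm38. Alternatives were median-of-ratios scaling, other filters, DESeq2 1.42.0, limma 3.58.1 on TPM, a fit of the 8 libraries compared, the replicate block, age, and leaving out each library. All 10 genes are named, and up to 4 called genes with the smallest p of each other list, with the 5 genes most like Star, Cyp17a1 and Cyp19a1. A few other genes were singled out after their values were seen: Fdx2, Por, Hsd3b7 in the difference of effects, and Nr5a1. The 10 genes and all lists were chosen with earlier results of these data known.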

Additional observations from a re-analysis of the deposited data

Results flagged for a closer look

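In 4 of 40 sets of 4 libraries (10 genes in 4 groups), 1 library stood far from the other 3 by Dixon's gap test, which chance would give in about 1 in 20. Star was at 2630 CPM in Control for Post T library 1, a gap of 0.878 of the group's range. Fdxr was at 418 CPM in Control for On T library 1, a gap of 0.882 of the range. On T library 3 stood apart for Fdx1, at 492 CPM (0.857 of the range), and for Cyp17a1, at 1096 CPM (0.929 of the range). Without Control for Post T library 1 the log2 value of Star after testosterone was -1.20 in place of -2.01, and without On T library 3 the values on testosterone were -2.25 for Fdx1 and -2.11 for Cyp17a1 in place of -1.58 and -0.14.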

How the results depend on the processing

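Of the 5 genes called on testosterone, Star (log2 -3.82 to -2.77), Cyp11a1 (-2.60 to -1.87) and Fdxr (-0.85 to -0.71) were called lower under all 17 alternatives, and after testosterone Hsd17b7 was too (-4.38 to -3.28). The count of called genes on testosterone was 3 in a fit of the 8 libraries compared, 4 by limma with either pseudocount, 6 by DESeq2, and 3 to 4 when each library was left out in turn. After testosterone it was 2 by limma, 4 in the fit of the 8 libraries and with age as a covariate, and 1 to 4 when each library was left out: 1 without Post T library 1, 2 without Control for Post T library 1 or Post T library 2 or 3, and 4 without Control for Post T library 2. The difference of effects called 0 to 1 gene when each library was left out, the 1 being Cyp11a1 without On T library 3. Star after testosterone was also missed by limma (adjusted p = 0.0600 with a pseudocount of 1 and 0.0669 with 0.1). None of the alternatives called Hsd3b1, Cyp17a1, Cyp19a1 or Hsd17b1. Over all tested genes the calls on testosterone numbered 1746, and 1018 and 1057 by limma with pseudocounts of 1 and 0.1, 1094 without Control for On T library 2 and 1081 without its library 4. The difference of effects had 612 calls and 976 by DESeq2, and the controls 0, with 20 without a filter on low counts, 177 by DESeq2 and at most 9 when a library was left out. Of 110 alternative values of ratios, none changed a call, and 3, all of Cyp19a1 to Cyp17a1, changed sign.

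Same-numbered libraries of treated and control groups had r of -0.02 to 0.23 between their deviations from the group means (other pairs -0.24 to 0.16), and not every pair passed 0.1, so the numbers were not taken to pair the mice. Libraries 2 and 3 of Post T and its controls also share an age. With the replicate block, 4 genes were called on testosterone, without Hsd17b7 (adjusted p = 0.124), and 2 after it, without Star (0.0544). All 13 correlations kept their sign with replicate means removed, but r of Hsd3b1 and Hsd17b1 was 0.172 in place of 0.567.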

Other observations

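Other cell type markers, summed per library, are given as values. Stromal markers were 415 to 514 TPM in Control for On T and 460 to 955 TPM in On T, with 3 of 5 called higher and 1 lower, and 403 to 685 TPM in Control for Post T and 594 to 759 TPM in Post T, with 1 called higher. Surface epithelium markers were 51.9 to 94.8 TPM and 7.63 to 87.6 TPM on testosterone, with 1 of 4 called lower, and 74.6 to 105 TPM and 41.4 to 91.3 TPM after it. Adipocyte markers were 32.7 to 90.5 TPM and 41.8 to 63.2 TPM on testosterone, and 30.8 to 68.7 TPM and 181 to 221 TPM after it, with 1 of 4 called higher. That sum was mostly Fabp4, at 17.9 to 48.2 TPM in Control for Post T and 135 to 215 TPM in Post T, while Adipoq was 0.16 to 2.71 TPM and 0 to 3.69 TPM and Cidec 0.03 to 2.78 TPM and 0 to 3.52 TPM in these groups, both overlapping. Macrophage markers on testosterone were 251 to 381 TPM in the controls and 580 to 1097 TPM in treated libraries, with 3 of 5 called higher. Most of each sum was Lyz2, at 170 to 264 TPM in Control for On T and 432 to 820 TPM in On T. Csf1r and Adgre1 overlapped between these groups and did not follow that rise. Csf1r was 12.45 to 14.7 TPM and 9.54 to 13.8 TPM, and Adgre1 5.63 to 8.21 TPM and 5.54 to 9.42 TPM. Oviduct markers stayed at or below 4.74 TPM in all 16 libraries.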
